A study of Arabidopsis thaliana with 9 samples.

Results

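Transcript levels of the Arabidopsis thaliana line L17 were compared with those of wild type in whole seedlings grown in the dark for 10 days on Petri plates. The comparison took the 3 arrays titled for L17 and the 3 titled for wild type, 6 of the 9 arrays of the series. L17 is labelled as a phyA' line. Wild type is Col-0, the accession that the labels also give as the genetic background of L17. The other 3 arrays came from a line named sps1 of the same background and age. They were used here for the estimate of spread and for a few values beside those of L17. No treatment was given to any line. L17 is 1 line, and the labels do not say what it carries besides phyA'. Separate plant batches are not stated for the arrays of a line, and the p-values cover only the spread from array to array.

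Phytochrome A is the photoreceptor that accumulates in seedlings in the dark and starts the switch to light growth when they are first lit, after it has moved into the nucleus. The name phyA' has been used for a silenced, DNA-methylated state of its gene, PHYA. Seedlings kept in the dark are etiolated: the hypocotyl is long, the cotyledons stay closed, and plastids remain without chlorophyll while protochlorophyllide and its reductase build up. PHYA itself is not analysed here: none of the named probe sets carries its name. A whole seedling mixes many cell types, and in such bulk samples fewer cells of a type and less RNA per cell cannot be told apart.

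Each array gave 1 signal for each of 22746 tested probe sets, in arbitrary units on a linear scale, of which 13513 are named for exactly 1 gene. Median signals were between 143.3 and 153.4 on the L17 arrays and between 147 and 155 on the wild type arrays. The 3 L17 arrays were alike, with correlations between 0.98 and 0.987 across probe sets, which share the array and are not independent. Wild type arrays 1 and 2 correlated at 0.985, and array 3 correlated with each of them at 0.954. On wild type array 3 genes of small heat shock proteins, which are made under heat and other stress, were high. AT2G29500 read 140, 115 and 86.5 on the L17 arrays and 176, 160 and 9140 on the wild type arrays. The main counts and groups below are therefore also given without that array where its removal changes them. The ratio of 3' to 5' signals of the ubiquitin control, which rises as RNA is less complete, was 2.43, 2.28 and 2.24 in L17 and 1.8, 1.8 and 1.96 in wild type. The same ratio of the other controls overlapped between the lines, with 2.63, 2.36 and 3.04 in L17 and 2.3, 2.56 and 3.09 in wild type for actin. For GAPDH it was 1.61, 1.32 and 1.79 in L17 and 1.31, 1.53 and 1.41 in wild type. The part of RNA completeness in the differences below was not tested. Of the markers of etiolated seedlings listed for this comparison, PORB was measured. It encodes a protochlorophyllide reductase, and read 4486, 4054 and 5188 in L17 and 2730, 1725 and 1673 in wild type. Marker lists of root, ungerminated seed, pollen and green leaf had no member named here.

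L17 differed from wild type at 2601 probe sets, or 11.4% of those tested, by limma on log2(signal + 16) with a Benjamini-Hochberg adjusted p under 0.05. Of these, 1210 were higher in L17 (5.32%) and 1391 were lower (6.12%). The largest changes ran mostly downwards. Changes of at least 2-fold were found at 453 higher and 796 lower probe sets, 5.49% together (5.27% without wild type array 3). At least 4-fold changes, 1.16% of probe sets, were made up of 66 higher and 197 lower in L17, and at least 8-fold changes of 18 higher and 72 lower. Over all tested probe sets the median log2 fold change was 0.008. Without wild type array 3 the calls were 1192 higher (5.24%) and 1404 lower (6.17%). Of these, 2089 were also called with all arrays, every one in the same direction. At least 4-fold changes, then 1.13% of probe sets, were 67 higher and 190 lower, and at least 8-fold changes were 19 higher and 55 lower.

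Among the strongest falls were genes with a bright signal in wild type and next to none in L17. AT5G45500, which encodes a protein with leucine-rich repeats of the RNI type, read 0.79, 3.55 and 4.21 in the 3 L17 arrays, against 2002, 1953 and 2313 in wild type. The fall was -6.80 ± 0.13 on the log2 scale (SE, adjusted p = 9.46e-08 by limma). AT1G23960 read 3.87, 9.59 and 1.35 in L17 and 1837, 2136 and 1875 in wild type. No L17 array came near any wild type array for either gene. Lines without any overlap of their arrays were seen at 31.2% of tested probe sets. ZW9, which encodes a TRAF-like protein, read 55.4, 58.9 and 48.3 in L17 and 3653, 3350 and 2949 in wild type. AT3G55790 read 0.58, 0.94 and 4.02 in L17 and 902, 732 and 821 in wild type. The sps1 line, which has the same wild type arrays as its comparison, read 6.05, 4.96 and 3.83 for AT5G45500, 24.5, 28.8 and 10 for ZW9 and 1.58, 1.44 and 1.98 for AT3G55790. All 3 of these genes were thus below wild type in sps1 too, whereas AT1G23960 read 2007, 2244 and 2114 there. Values of sps1 are given here and below for single genes only, and do not show how common either case was. A tally is not reported here, because both lines were set against the same wild type arrays. Signals under 16, the constant added before taking logs, were read at 19% to 21.3% of probe sets on the L17 arrays and 16.5% to 21% on the wild type arrays.

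The other large falls belong to several families. AT4G07820, of the PR-1-like CAP family of secreted proteins, read 30.5, 10.8 and 29.9 in L17 and 1615, 1673 and 679 in wild type. AT2G43590, of the chitinase family, read 71.1, 28.1 and 89.2 in L17 and 2382, 1645 and 2919 in wild type. AT1G16260, a wall-associated kinase-like receptor, read 1.2, 11.3 and 1.23 in L17 and 311, 387 and 531 in wild type. For all 3 genes the highest L17 signal stood far below the lowest wild type signal, which for AT4G07820 was that of array 3. CYP71B34, a cytochrome P450, read 0.77, 7.42 and 1.71 in L17 and 609, 611 and 515 in wild type. AT3G43740, of a leucine-rich repeat family, had a log2 fold change of -5.20, and AT3G47250, of a plant family of unknown function, -5.04. AT5G05750, of the DnaJ co-chaperone family, fell by 4.58 on the log2 scale, and AT1G72060, a predicted peptidase inhibitor, fell by 4.23. The remaining genes among the 15 largest falls were AT5G26270, AT5G55790 and AT1G26390, with log2 fold changes of -4.64, -4.34 and -4.31.

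**Figure D1:**
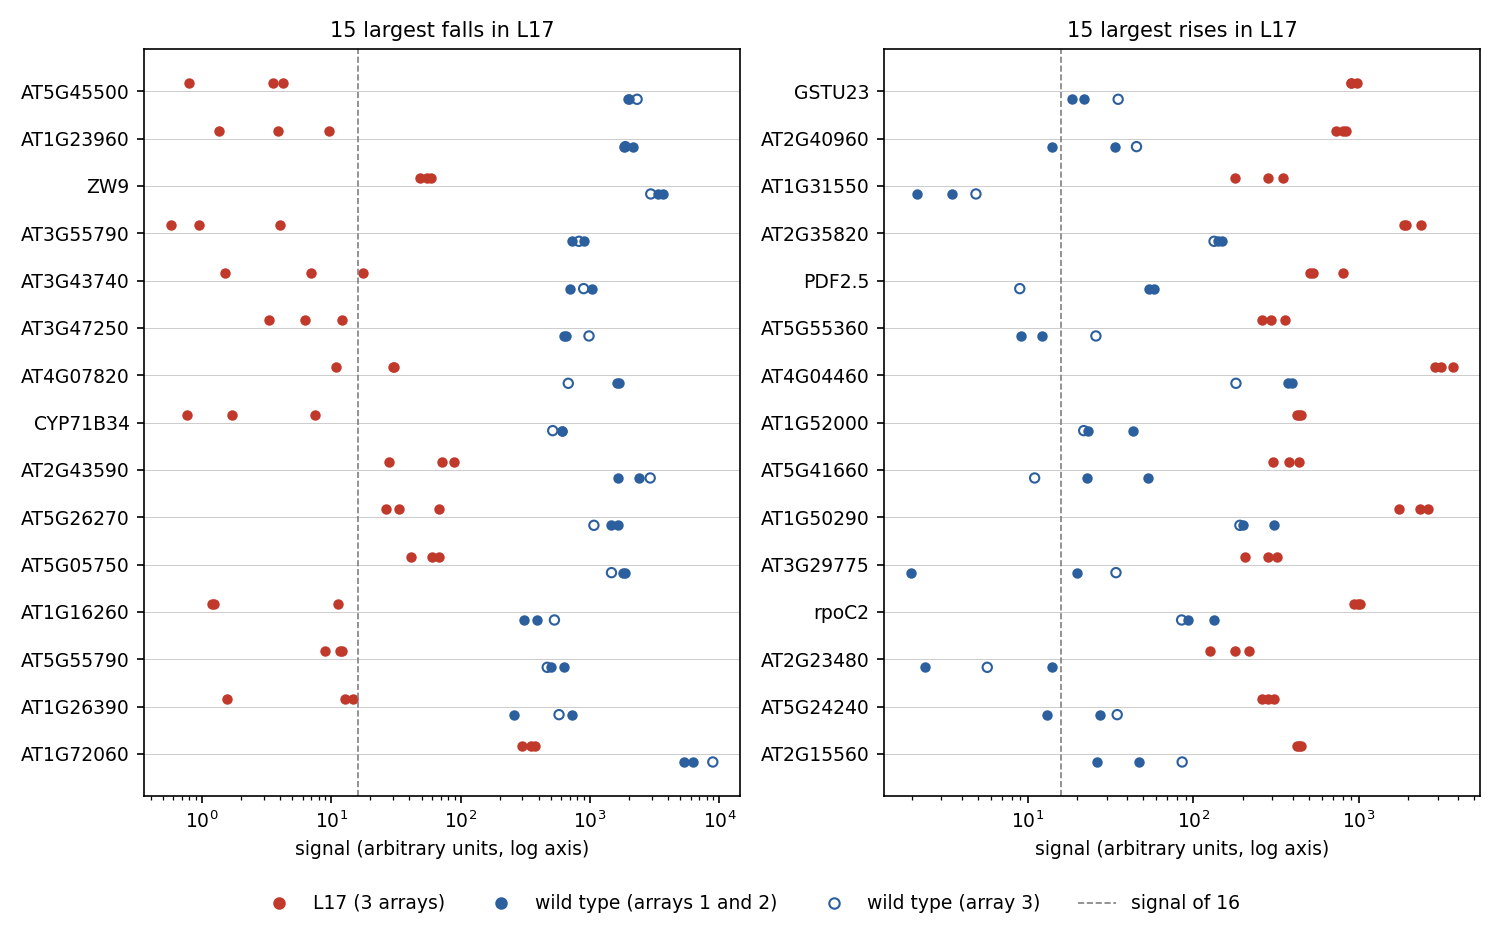
Signal (log axis, arbitrary units) of the 15 genes with the largest falls (left) and the 15 with the largest rises (right), 1 point per array, with L17 above wild type in each row and wild type array 3 as an open circle. For every gene the 3 L17 points lie apart from the 3 wild type points, which was a condition of the choice. In 8 of the falls all L17 points lie under a signal of 16 (dashed line).

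With the constant of 16, GSTU23 rose most among the genes named alone. It encodes a glutathione S-transferase of the tau class, which conjugates glutathione to foreign and reactive compounds. Its signals were 974, 904 and 905 in L17 and 18.6, 22 and 35.2 in wild type, so that the log2 fold change was 4.54 ± 0.19 (SE, adjusted p = 5.60e-06 by limma). AT2G40960, for a protein with an R3H nucleic acid binding domain, read 839, 811 and 735 in L17 and 33.9, 14.1 and 45.5 in wild type. Both genes were dim in all 3 wild type arrays and of medium brightness in L17. AT1G31550, a GDSL lipase, read 180, 282 and 351 in L17 and 3.51, 2.15 and 4.87 in wild type. In sps1, GSTU23 read 880, 635 and 647 and AT2G40960 read 595, 691 and 589, both above wild type as in L17, while AT1G31550 read 15, 2.43 and 3.25. AT2G35820 was brighter throughout, with 1925, 1885 and 2374 in L17 and 149, 142 and 134 in wild type.

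The next rises belong to several families. PDF2.5, a plant defensin, read 506, 529 and 810 in L17 and 58.4, 53.8 and 8.96 in wild type. AT5G55360, of the wax synthase-like acyltransferases, read 359, 261 and 295 in L17 and 12.2, 9.12 and 25.9 in wild type. AT4G04460, an aspartic protease of the saposin-like type, read 3133, 2903 and 3705 in L17 and 397, 376 and 182 in wild type. For PDF2.5 and AT4G04460 array 3 was the lowest of the wild type arrays, and without it their log2 fold changes were 3.10 and 3.01 in place of 3.61 and 3.35. AT1G52000, of the jacalin lectins, read 451, 436 and 423 in L17 and 23.2, 43.6 and 21.8 in wild type. AT5G24240, a kinase of the phosphatidylinositol 4-kinase gamma type, had a log2 fold change of 2.91. The plastid gene rpoC2 was also among these 15 and is described with its genome below. The other rises were those of AT5G41660, AT1G50290, AT3G29775, AT2G23480 and AT2G15560, with log2 fold changes between 2.81 and 3.20. The probe set for AT2G23480 is of a type that may also read similar transcripts.

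These 30 genes were chosen among those called with and without wild type array 3, and none moved by over 1.5-fold when it was left out. Elsewhere that array mattered. With it 512 probe sets were called that did not pass without it, and without it 507 passed that did not pass with it. The log2 fold change of AT2G29500 was -2.40 (limma adjusted p = 0.288) with all arrays and -0.52 (limma adjusted p = 0.226) without array 3. AT4G15390, AT5G43030 and AT2G19610 were examples of calls gained without it, chosen after their values were seen. AT5G43030 read 1.06, 1.11 and 2.03 in L17 and 68.8, 58 and 3.66 in wild type. There array 3 alone lay near the L17 level, and the log2 fold change was -2.19 without it (limma adjusted p = 9.21e-05) against -1.52 with it (limma adjusted p = 0.0736).

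**Figure D2:**
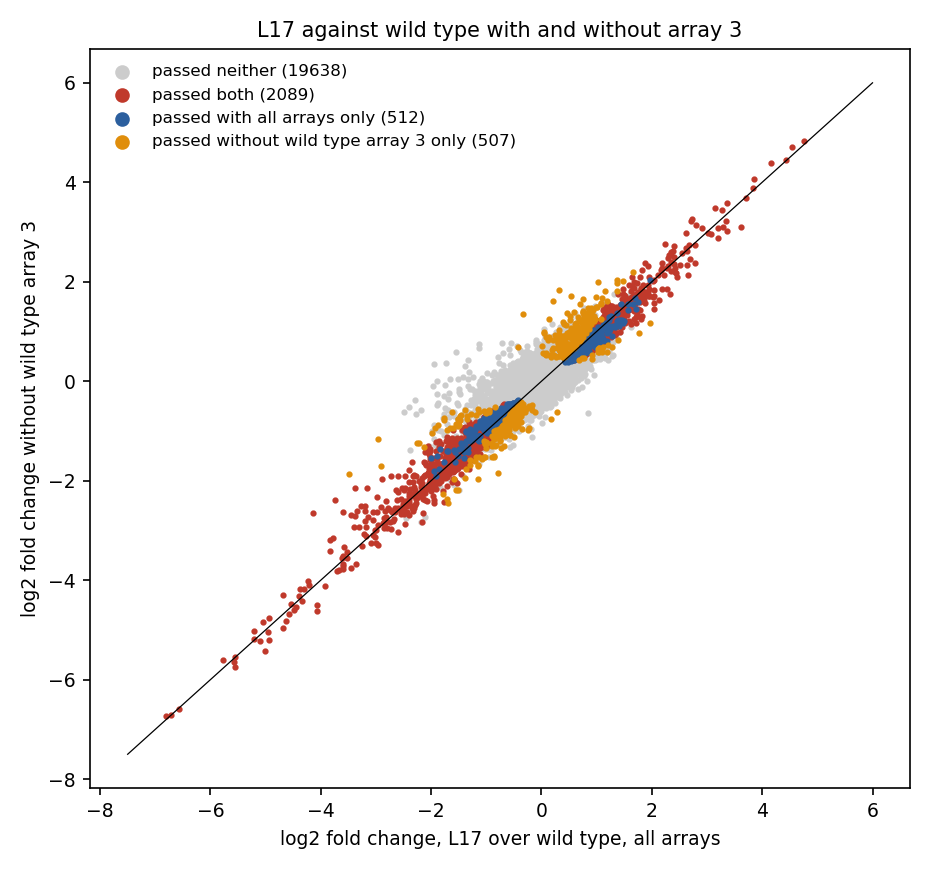
Log2 fold change of L17 over wild type for every probe set, with all arrays (horizontal axis) and without wild type array 3 (vertical axis), coloured by which of the 2 fits passed an adjusted p under 0.05. The 2089 probe sets that passed both lie along the diagonal line of equal values, and the 512 and 507 that passed only one lie closer to 0 or off the line.

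Loss of a bright signal was more frequent than gain. A signal of at least 200 on all 3 wild type arrays and under 16 on all 3 L17 arrays was found for 12 probe sets, 9 of which name 1 gene. The reverse pattern, at least 200 in L17 and under 16 in wild type, was found for 1 probe set, which names no gene here. Besides 8 genes named above, the 9 included AT2G13970, which read 6.14, 4.09 and 4.26 in L17 and 228, 229 and 264 in wild type. With limits of 100 and 32 in place of 200 and 16 the numbers were 45 and 6. The 5 named genes of those 6 were AT5G55360, AT1G31550, AT2G23480, AT4G19470 and AT1G52990.

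Intracellular immune receptors of the NBS-LRR and TIR families recognise pathogen molecules and start defence. The list of 167 genes of these families was written after values had been seen, so its share called only describes the listed genes. Of the 167 genes 104 were measured, and 20 fell, 3 rose and 81 did not pass the test. That is 22.1% called, against 10.6% of all 13356 genes measured by this rule, and the median log2 fold change was -0.32. They are dim genes, with a median wild type mean of 41.9 and a median L17 mean of 18.1, so many of the L17 values are near the lower end of what the arrays resolve. AT1G15890 read 3.35, 7.13 and 21 in L17 and 118, 158 and 200 in wild type (log2 fold change -2.75, limma adjusted p = 0.00133). AT4G16900 read 2.95, 1.28 and 1.91 in L17 and 76.1, 65.4 and 87.5 in wild type. AT1G72840 read 27, 10.3 and 9.83 in L17 and 127, 118 and 110 in wild type. In each of these genes all L17 arrays lay at least 4-fold below the lowest wild type array. CSA1, a receptor also linked to the response to shade-type light, read 1.94, 17.1 and 37 in L17 and 128, 168 and 157 in wild type, a call lost with a constant of 1 in place of 16 (limma adjusted p = 0.0579). AT5G48780 fell by 2.03 on the log2 scale.

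The 3 receptor genes that rose were LOV1, AT3G46710 and AT5G40920. LOV1, known for sensitivity to the fungal toxin victorin, read 132, 110 and 123 in L17 and 49.3, 38.1 and 74.6 in wild type. AT5G40920 read 181, 161 and 189 in L17 and 41.3, 50.9 and 6.05 in wild type. Its neighbour AT5G40910 had the opposite difference, with 1.22, 14.1 and 25 in L17 and 130, 70.9 and 81.3 in wild type, a call that a constant of 1 ends (limma adjusted p = 0.0509). The groups did not overlap for either of these adjacent receptor genes, as at 31.2% of all probe sets. Without wild type array 3 the receptor list had 18 members lower and 5 higher, with a median of -0.18 in place of -0.32.

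Berberine bridge enzyme-like proteins are secreted oxidases, some of which oxidise cell wall sugars or defence compounds. Their list of 27 genes was also written after values had been seen, so its share called only describes the listed genes. Of the 27 genes 22 were measured, and 8 fell, 0 rose and 14 did not pass. That is 36.4% called, against 10.6% of all genes, and the median log2 fold change was -0.36. Without wild type array 3 the count was also 8, but of partly other members: AT4G20860 lost its call (limma adjusted p = 0.0734) and AT1G30760 gained one (limma adjusted p = 0.0105). With each other L17 or wild type array left out it was 4 to 7, the 4 without L17 array 3, and 5 without L17 array 1 or 2. Of 5 genes in a row on chromosome 1, 4 fell. AT1G26390 read 14.7, 12.9 and 1.57 in L17 and 722, 261 and 576 in wild type. AT1G26410 read 18.2, 1.97 and 8.38 in L17 and 192, 91.8 and 679 in wild type. AT1G26420 read 4.15, 30.3 and 36.9 in L17 and 264, 183 and 1155 in wild type. For AT1G26410 and AT1G26420 array 3 was the highest wild type array, but the other wild type arrays also stood clear of L17. AT1G26380 read 31.5, 30.1 and 82.8 in L17 and 418, 308 and 8554 in wild type. Its log2 fold change was -4.15 (limma adjusted p = 0.0409) with all arrays and -2.64 (limma adjusted p = 0.00823) without array 3. Without L17 array 1, 2 or 3 its limma adjusted p was 0.116, 0.122 or 0.0806, and without any 1 sps1 array it was between 0.0595 and 0.0646. AT1G26400, in the middle of the row, was near the lower limit in both lines. Elsewhere AT5G44440 read 998, 1371 and 1451 in L17 and 5388, 4831 and 3420 in wild type, and AT1G30700 fell by 1.85 on the log2 scale, a call lost without L17 array 2 or 3 (limma adjusted p = 0.0621 or 0.0618).

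Chitinases cut the chitin of fungal cell walls. Their list of 24 genes, too, was written after values had been seen, and its share called only describes the listed genes. Of the 24 genes 15 were measured, of which 5 fell, 0 rose and 10 did not pass, 33.3% called against 10.6% of all genes. Their median log2 fold change was -0.53. Only 3 fell without L17 array 1 or 3. AT1G02360 then lost its call (limma adjusted p = 0.0994 or 0.106), as did AT4G19820 (limma adjusted p = 0.13 or 0.121). CHI read 193, 172 and 154 in L17 and 1702, 1195 and 3119 in wild type. AT2G43610 read 517, 777 and 760 in L17 and 3538, 3403 and 2822 in wild type. With AT2G43590 these are 3 members of a run of neighbouring chitinase genes on chromosome 2 in which L17 was below wild type without overlap. Lines without overlap, in either direction, were seen at 31.2% of all probe sets. AT2G43620 of the same run pointed the other way, with 232, 287 and 331 in L17 and 67.4, 53 and 249 in wild type. It did not pass with all arrays (limma adjusted p = 0.0812) and passed without array 3 (log2 fold change 1.97, limma adjusted p = 0.000544). Without array 3 the list had 6 members lower and 1 higher, with a median of -0.22.

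**Figure D3:**
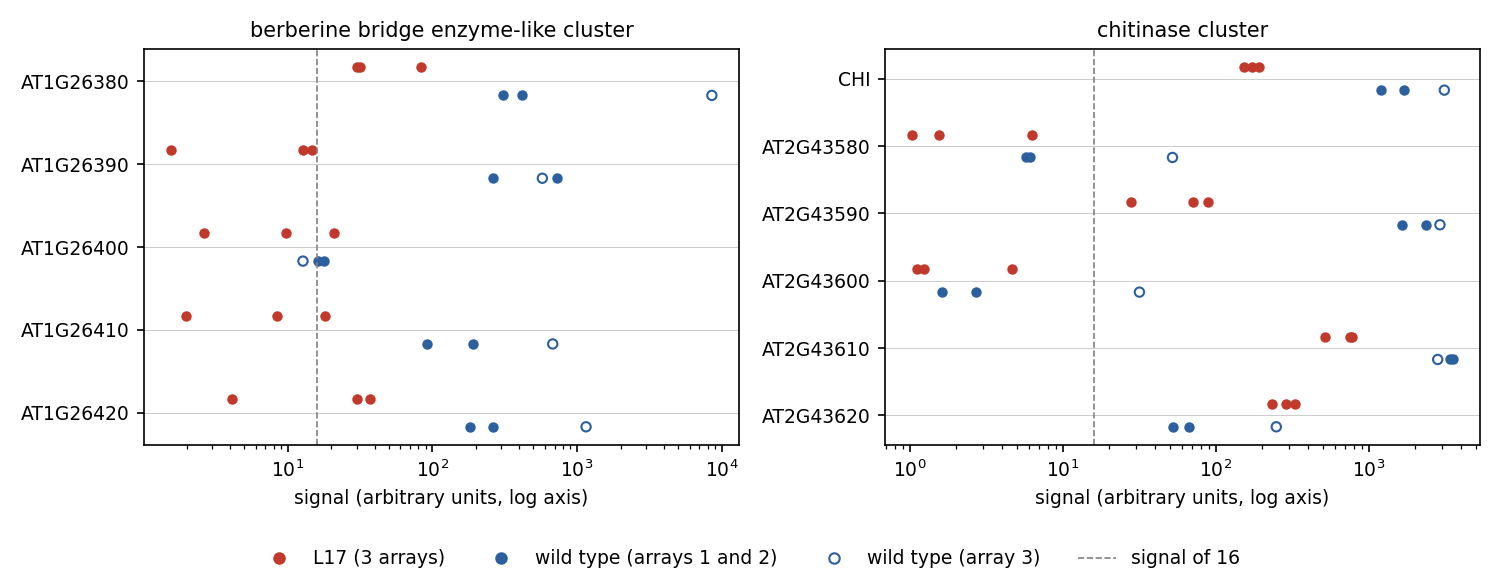
Signal (log axis, arbitrary units) of 5 berberine bridge enzyme-like genes in a row on chromosome 1 (left) and 6 neighbouring chitinase genes on chromosome 2 (right), 1 point per array, with L17 above wild type in each row and wild type array 3 as an open circle. Of these genes 4 on the left and 3 on the right fell, while AT1G26400, AT2G43580 and AT2G43600 are dim in both lines and AT2G43620 is higher in L17 than in wild type arrays 1 and 2.

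Enzymes that modify small molecules changed in both directions. UDP-dependent glycosyltransferases, which attach sugars to hormones and secondary metabolites, had 47 measured genes, of which 9 fell and 3 rose, 25.5% called against 10.6% of all genes. UGT74B1, which makes a step of glucosinolate synthesis, read 134, 239 and 134 in L17 and 750, 678 and 1569 in wild type. UGT88A1 fell by 1.29 and UGT76C1, which glucosylates cytokinins, fell by 0.84 on the log2 scale. UGT74F1, which glucosylates salicylic acid, was higher, with 35.2, 58.7 and 46.1 in L17 and 9.52, 9.15 and 9.75 in wild type. The family had 11 members lower and 5 higher when wild type array 3 was left out. Without any 1 of the L17 arrays 5 fell. Without L17 array 2, 1 rose, the calls of UGT71C4 and UGT80B1 being lost (limma adjusted p = 0.0624 and 0.0707).

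Genes with CYP symbols, most of them for cytochrome P450s, numbered 26. Of these 6 fell and 0 rose, 23.1% called against 10.6% of all genes, with a median log2 fold change of 0.05. CYP59 and CYP71 share the symbol but are cyclophilins, not cytochrome P450s, and did not pass. When wild type array 3 was left out 7 fell, and without L17 array 1 or 2, 4 fell. Of the 26, 19 belong to the CYP71B subfamily, as do 5 of the 6 that fell with all arrays. Of those 5, 4 lie among 11 measured CYP71B genes in 1 stretch of chromosome 3. CYP71B34, described above, is one of these 4. CYP71B24 read 24.4, 30.2 and 23.8 in L17 and 108, 87.8 and 182 in wild type, and CYP71B23 read 626, 646 and 657 in L17 and 1229, 1053 and 1049 in wild type. The L17 signals of each were below all wild type signals, while 31.2% of all probe sets separated the lines in either direction. In contrast CYP71B35, next to CYP71B34, did not pass (0.21 on the log2 scale, limma adjusted p = 0.634). CYP71B25 had -1.17, a call lost without L17 array 1 or 2 or wild type array 2 (limma adjusted p = 0.0624, 0.0691 and 0.0605).

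Of 11 tau class glutathione S-transferases 1 rose and 2 fell, 27.3% called against 10.6% of all genes. GSTU23 rose, while its relative GSTU22 read 862, 650 and 623 in L17 and 2660, 2389 and 1846 in wild type. For both genes all L17 arrays lay apart from all wild type arrays, as at 31.2% of all probe sets. GSTU18 had a log2 fold change of -0.91. Its call was lost without L17 array 1 or 2 or any single wild type array (limma adjusted p between 0.053 and 0.124). Beta-glucosidases, which release sugars from stored conjugates, had 20 measured members, of which 3 rose and 0 fell. Their share called, 15%, was not far from the 10.6% of all genes, and 4 rose without wild type array 3, BGLU28 being added (log2 fold change 1.37, limma adjusted p = 0.00832). BGLU15 read 772, 891 and 914 in L17 and 281, 220 and 289 in wild type, and BGLU19 had a log2 fold change of 1.53. BGLU45, known for releasing lignin precursors, had 1.88 with all arrays and 2.39 without array 3, and its call was lost without L17 array 2 or wild type array 2 (limma adjusted p = 0.0585 or 0.0512).

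**Figure D4:**
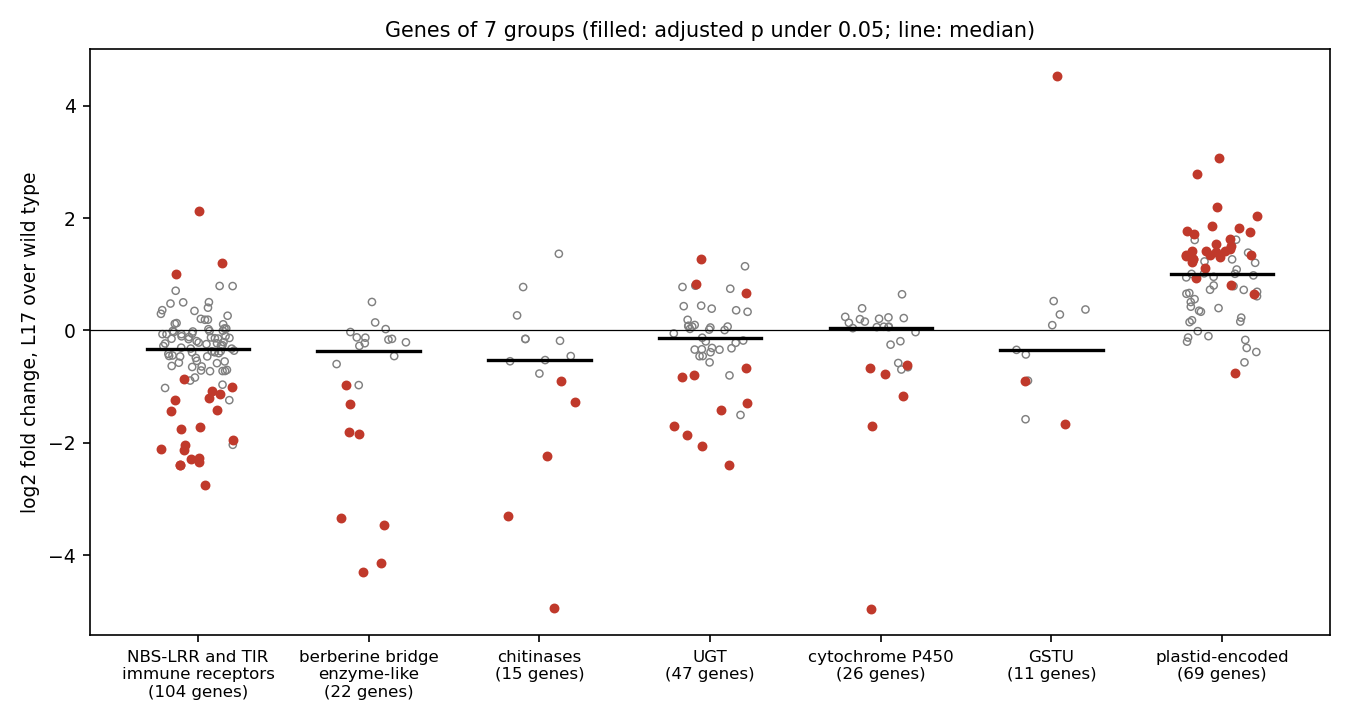
Log2 fold change of L17 over wild type for each measured gene of 7 groups, with genes past the test filled and the median of each group as a line. The cytochrome P450 group holds all genes with CYP symbols, the cyclophilins CYP59 and CYP71 included. The receptor, berberine bridge enzyme-like and chitinase groups have most filled points below 0, the tau class glutathione S-transferases have 1 far above 0, and the plastid-encoded genes have all filled points above 0 except psbE.

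Signalling peptides and wall proteins included single strong changes. CLE44 and CLE41 encode the peptide TDIF, which keeps vascular stem cells from becoming xylem. CLE44 read 96.5, 148 and 170 in L17 and 904, 895 and 1000 in wild type, and CLE41 read 94.8, 96.7 and 80.6 in L17 and 248, 177 and 346 in wild type. Both thus fell without overlap, a separation seen at 31.2% of all probe sets in either direction. The other 4 measured CLE genes did not pass, so that 33.3% of the family was called, against 10.6% of all genes. RALFL32, of the family of peptides that raise the pH outside the cell, read 658, 691 and 861 in L17 and 3919, 4392 and 4370 in wild type. RALFL34 read 2156, 2028 and 2296 in L17 and 1455, 1381 and 1134 in wild type, a rise of 0.71 on the log2 scale. The other 9 measured members did not pass, so that 18.2% of the family was called, against 10.6% of all genes. RALFL26 was also lower when array 3 was left out (log2 fold change -0.99, limma adjusted p = 0.00472, against 0.0619 with all arrays). In sps1 RALFL32 read 5143, 4834 and 4903.

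Expansins loosen cell walls without cutting them. Of 10 measured alpha-expansins 2 rose and 1 fell, 30% called against 10.6% of all genes. EXPA9 read 3992, 4523 and 4798 in L17 and 1785, 1519 and 1390 in wild type, and EXPA16 read 70.2, 49 and 94 in L17 and 156, 222 and 233 in wild type. The other rise, of EXPA8, was a call lost without L17 array 3 (limma adjusted p = 0.0594). Of 9 measured xyloglucan endotransglucosylases, which rejoin wall polymers, 2 rose and 1 fell (33.3% called). The fall was that of XTH16. Its call was lost without any 1 L17 array or wild type array 1 or 2 (limma adjusted p between 0.0539 and 0.0815). XTH32 read 441, 429 and 396 in L17 and 119, 69.7 and 90.4 in wild type. It had the largest log2 fold change of the family, at 2.03. PME61, a pectin methylesterase, read 21.7, 3.1 and 16.1 in L17 and 411, 326 and 188 in wild type. It was the 1 called gene of 6 (16.7%) in the list of cellulose and pectin enzymes. Among SWEET sugar transporters, with 14 measured genes, 2 fell and 0 rose (14.3% called). SWEET17 read 144, 149 and 130 in L17 and 870, 753 and 310 in wild type. The other, SWEET3, had a log2 fold change of -0.97, a call lost with any single array left out except wild type array 3. SWEET11, the brightest of the 14, gave -0.42 (limma adjusted p = 0.125).

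Of the genes listed for light signalling, 2 had a named probe set. Gene names are missing here for 8730 probe sets, so the lists may be covered only in part. FHL, which with FHY1 carries phytochrome A into the nucleus, read 158, 173 and 117 in L17 and 452, 379 and 412 in wild type. Its log2 fold change was -1.39 (limma adjusted p = 0.00693), and every L17 array lay below every wild type array. HYH, a transcription factor related to HY5, did not pass (log2 fold change -0.71, limma adjusted p = 0.32). Of 4 listed clock genes with a named probe set 1 rose, 25% against 10.6% of all genes. This was FIO1, with 127, 176 and 140 in L17 and 48.4, 55.3 and 65.8 in wild type, and GI and TIC did not pass. Of the listed DNA methylation and silencing genes 3 had a named probe set and 0 passed. DME, which removes methylated bases, read 151, 157 and 182 in L17 and 159, 181 and 141 in wild type, and SE was as close. AGO7, which acts with small RNAs, read 96.2, 77.7 and 128 in L17 and 48.4, 28.6 and 37.1 in wild type (limma adjusted p = 0.0508).

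Of 7 measured bHLH genes 2 fell, 28.6% against 10.6% of all genes. Of these bHLH104, a regulator of iron uptake, read 499, 442 and 554 in L17 and 1690, 1666 and 2633 in wild type. The other, bHLH121, fell by 0.54 on the log2 scale, a call lost without array 3 (limma adjusted p = 0.0597) and without every other single array except L17 array 3. Of 14 bZIP genes 2 rose (14.3%), among them bZIP44 with a log2 fold change of 0.97. Of 42 MADS box genes 1 rose and 1 fell (4.76%). AGL59 rose, a call lost without L17 array 2 (limma adjusted p = 0.0575). AGL23, which fell, lost its call with any single array left out (limma adjusted p between 0.0523 and 0.151). AGL87 was lower without array 3 (log2 fold change -1.95, limma adjusted p = 0.000743), against a limma adjusted p of 0.0702 with all arrays. Of 9 listed sucrose and starch genes with a named probe set 0 passed. Of the 39 gene families with at least 6 measured members sharing a symbol, 11 had no member past the test. Of 6 measured subunits of RNA polymerase II 3 rose, 50% called against 10.6% of all genes. These were NRPB7, NRPB9B and NRPB12, with log2 fold changes of 0.86, 0.85 and 0.49. The call of NRPB12 was lost with any single array left out, its adjusted p then lying between 0.0524 and 0.119, and that of NRPB9B was lost without L17 array 3 (limma adjusted p = 0.0501).

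The plastid genome encodes its own RNA polymerase, part of the plastid ribosome, and subunits of the photosystems and related complexes. Of its 69 measured genes 30, or 43.5%, were called, against 10.6% of all genes, and 29 of these were higher in L17. With each L17 or wild type array left out 13 to 30 were higher, the fewest, 13, 15 and 18, without L17 arrays 1, 3 and 2, and 20 without wild type array 2. Of 4 polymerase subunits 3 rose, and 2 to 3 with each L17 or wild type array left out. The largest rise was that of rpoC2, which read 1027, 936 and 996 in L17 and 134, 93.4 and 85.2 in wild type. The subunit rpoA read 3152, 3057 and 2900 in L17 and 1382, 1095 and 875 in wild type, whereas rpoB gave a log2 fold change of -0.10. Subunits of 1 polymerase thus differed by amounts from -0.10 to 3.08.

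Of 15 plastid ribosomal protein genes 10 rose and 0 fell, 66.7% called against 10.6% of all genes, with a median log2 fold change of 1.41. Between 6 and 12 rose with each L17 or wild type array left out. The gene rpl14 read 1454, 1256 and 2583 in L17 and 634, 323 and 215 in wild type, and rps18 read 698, 746 and 891 in L17 and 279, 198 and 149 in wild type. Of 32 genes for photosystem, cytochrome and ATP synthase subunits 9 rose and 1 fell (31.2% called), with a median of 0.80. Leaving out each L17 or wild type array gave 3 to 10 higher and 1 to 2 lower. The gene psbA encodes D1, a core protein of photosystem II, and read 1441, 997 and 902 in L17 and 139, 160 and 135 in wild type. The exception was psbE, for a cytochrome b559 subunit, with 1521, 1440 and 1813 in L17 and 2622, 2616 and 2801 in wild type. Its neighbours psbF, psbL and psbJ, transcribed with it, gave -0.57, -0.17 and -0.20 and did not pass. Of 10 subunits of the NDH complex 3 rose (30% called), but only 0 to 2 with each L17 or wild type array left out. The gene ccsA, needed to build c-type cytochromes, read 4585, 3133 and 3198 in L17 and 1188, 1213 and 442 in wild type.

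For all 6 rising plastid genes whose array values are given here, array 3 was the lowest of the wild type arrays. Without it 23 genes rose, 1 fell, and the median was 0.92 in place of 1.01. The calls of accD, atpE, ndhE, psbC, psaI, rps2 and psbN were lost, with limma adjusted p = 0.0888, 0.0887, 0.0792, 0.116, 0.119, 0.104 and 0.0732. The call of petD was gained, with a limma adjusted p of 0.00258 without array 3 and 0.0996 with it. The ubiquitin 3' to 5' ratio given above was higher on all L17 arrays than on all wild type arrays, those of actin and GAPDH were not, and the part of RNA completeness in the plastid values was not tested.

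On the nuclear chromosomes the share of measured genes that passed was between 9.08% on chromosome 2 and 11.8% on chromosome 5. When genes were taken in their order in blocks of 50, the 262 blocks held between 0 and 18 called genes, with a median of 5. The block with 18 called genes ran from AT4G16650 to AT4G17470 on chromosome 4, and the next highest blocks had 11. It held 6 genes higher and 12 lower in L17, and 20 were called without wild type array 3. AT4G16900 and AT4G16920, receptor genes of 1 cluster, were among those lower, the second call being lost without L17 array 2 or 3 (limma adjusted p = 0.0766 or 0.0787). AT4G17215 read 158, 261 and 201 in L17 and 915, 711 and 2621 in wild type, and AT4G17280 read 288, 285 and 251 in L17 and 749, 874 and 900 in wild type. In contrast AT4G17470 read 955, 1562 and 1464 in L17 and 335, 368 and 227 in wild type. The block was singled out after its count was seen. In sps1, set against the same wild type arrays, 16 genes of this block were called, also the most of any block. A high count there was thus not particular to L17.

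**Figure D5:**
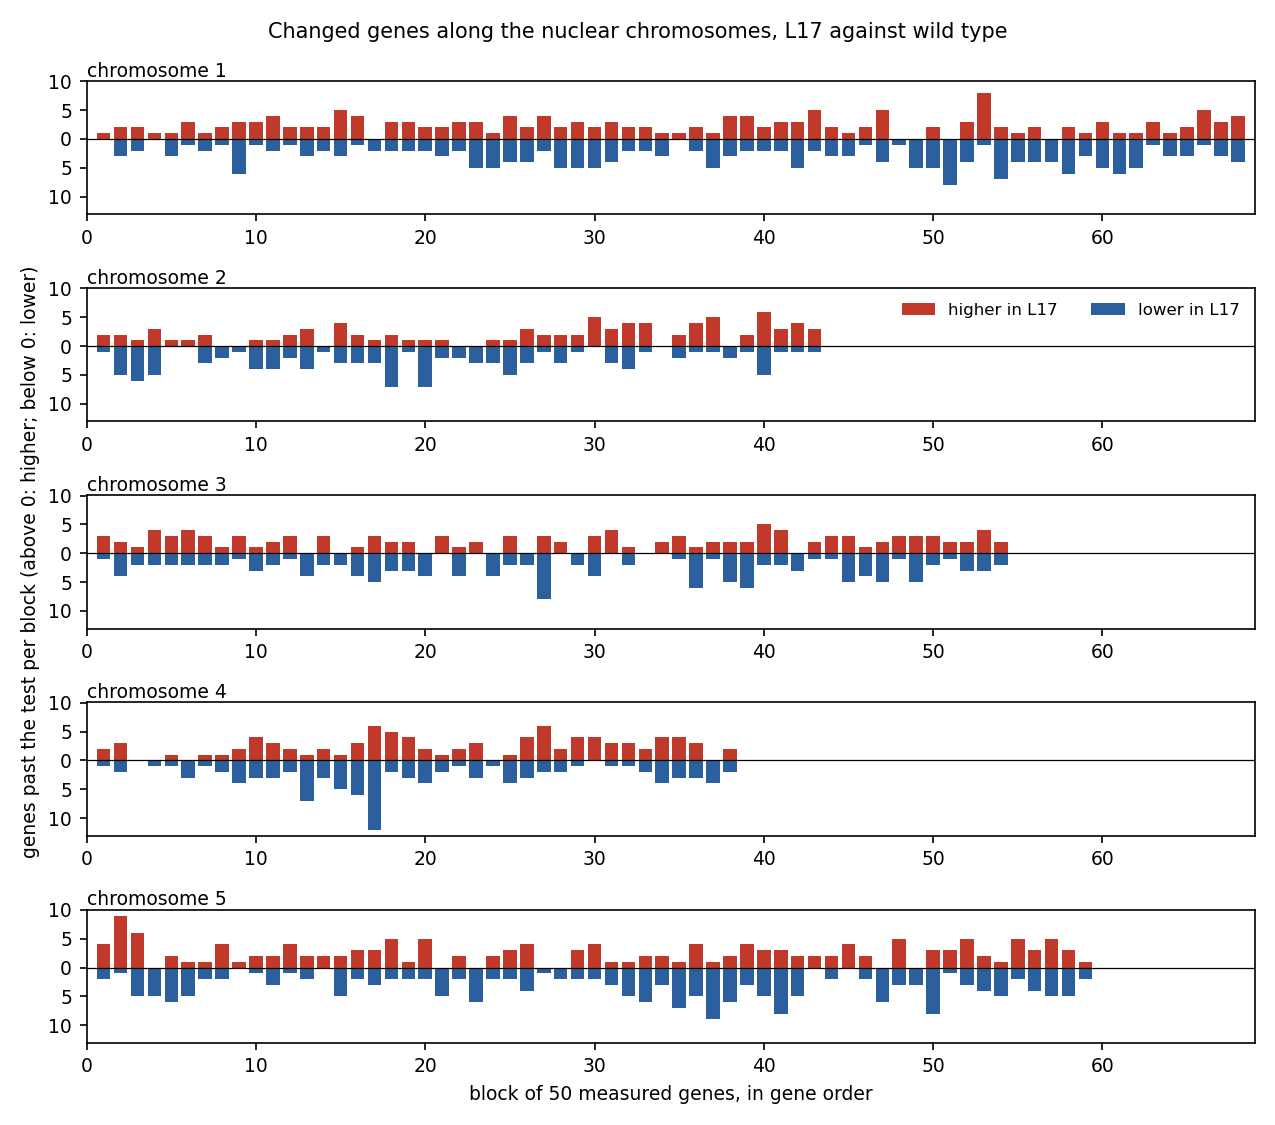
Number of genes past the test in each block of 50 measured genes in their order on chromosomes 1 to 5, with genes higher in L17 drawn above 0 and genes lower in L17 below 0. Most blocks hold about 5 called genes in both directions together, and 1 block of chromosome 4 holds 18, of which 12 are lower.

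Over all probe sets, changes of at least 4-fold were mostly falls, 197 lower against 66 higher. In genes next to each other such changes also ran mostly downwards. Among 5818 pairs of adjacent genes with both measured, 9 pairs had both genes past the test and changed at least 4-fold. In 8 pairs both were lower in L17, in 0 pairs both were higher, and in 1 pair the directions were opposite. Besides the berberine bridge enzyme-like pairs they included AT1G72890 and AT1G72900, receptor-type genes with log2 fold changes of -2.11 and -2.39, the second call being lost without L17 array 2 (limma adjusted p = 0.0554). AT5G38900 and AT5G38910 had log2 fold changes of -2.73 and -2.38. The call of AT5G38900 was lost without L17 array 1, 2 or 3 (limma adjusted p = 0.0749, 0.0583 or 0.0767). That of AT1G26380, in 1 of the berberine bridge enzyme-like pairs, was lost in the same way. AT1G72060 was paired with AT1G72070, which read 191, 158 and 236 in L17 and 1217, 1320 and 1350 in wild type. The receptor gene AT5G63020 was paired with GRXC1, a glutaredoxin, which read 442, 442 and 398 in L17 and 2059, 2100 and 1926 in wild type. Members of a pair therefore did not always belong to 1 family. In the opposite pair AT5G42830, an acyltransferase of the HXXXD type, read 32.7, 71.5 and 28.3 in L17 and 506, 286 and 673 in wild type. Its neighbour AT5G42840 read 104, 106 and 81.4 in L17 and 1.25, 6.01 and 12.2 in wild type, with no overlap in either gene. Such separation was seen at 31.2% of all probe sets.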

How the data were processed

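Biotin-labelled RNA was hybridised to 1-colour Affymetrix arrays, 3 per line. The deposited intensity values, 1 per probe set and array, were made with GCOS per the submitters' processing notes. How GCOS summarised and scaled the probes is not given in the sources used here. On every array the trimmed mean was 500.0, so the values had been scaled, and no further normalization was applied. The number of arrays limits the precision.

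Of 22810 probe sets 64 controls were left out. limma 3.58.1 in R 4.3.3 was fitted to log2(signal + 16) of all 9 arrays with 3 lines and no block. The contrast was L17 minus wild type, and p-values were adjusted by Benjamini-Hochberg over 22746 probe sets, with a threshold of 0.05. The constant of 16 understates changes of dim genes. The procedure was tested on simulated data. Lines and array numbers came from the sample titles.

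Names came from the platform annotation and the RefSeq table of TAIR10.1, used for names and gene order only. A single gene is named by 13513 probe sets, several by 503, and none here by 8730. RefSeq matched 13436. Where probe sets shared a gene, that of highest mean signal stood for it. No sequences were used here.

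The comparison, lists and families were chosen with earlier results of these data known, and they are described by counts and medians without a set test. The lists of immune receptors, berberine bridge enzyme-like oxidases and chitinases were written by locus from general knowledge after values had been seen. The named genes are the 15 largest rises and falls called with and without wild type array 3 with the lines separate, up to 4 members of each list with the smallest adjusted p and those that moved against the rest, genes near absent in 1 line, and adjacent genes that both changed at least 4-fold. Further members of lists, of the densest block and of the effect of array 3 were named after their values were seen. Same-numbered arrays of L17 and wild type did not deviate together (correlations 0.041, -0.03 and 0.059), so the numbers were not taken as pairs. Alternatives were other constants, normalizations, filters, moderations, array weights, a replicate block, L17 and wild type arrays alone, and each array left out.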

Additional observations from a re-analysis of the deposited data

How the results depend on the processing

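The 30 largest rises and falls kept their call and direction under all 18 alternative settings. They had been chosen as called without wild type array 3, so that setting could not end their call. As the largest changes with the lines separate, they were also the least exposed to the other settings. Of the 162 named genes that have a value under each setting 119 kept their call and direction, the 30 included. Another 14 named genes are too dim for the setting with a mean signal of at least 50, and 8 of these kept their call under the other settings. No gene reversed. The remaining genes lost their call under at least 1 setting, most often with an L17 array left out (33 to 35 genes each) or with only L17 and wild type arrays in the fit (30). The 2601 called probe sets (1210 higher, 1391 lower) became 1611 (680 higher) with only L17 and wild type arrays, 1249 (453 and 796) at a change of at least 2-fold, and 1024 (405 and 619) at an adjusted p under 0.01. With the replicate block 1806 were called, 769 higher and 1037 lower, although the array numbers did not pair the samples. Other settings gave more calls, with 3598 under array weights and 3470 under trended and robust moderation. A constant of 64 gave 3395, and a mean signal of at least 50 gave 3384. Leaving out each array in turn gave 1437 to 2596 called, 588 to 1192 higher and 849 to 1404 lower. The fewest were called without L17 array 2 (588 higher and 849 lower), and without wild type array 2 there were 782 higher. Without wild type array 3, 2596 were called in 8 arrays and 1858 with only L17 and wild type arrays, an alternative added after seeing the data. The 20 receptor genes that fell became 12 with a mean signal of at least 50, since dim probe sets are then left out, and 15 to 20 with each array left out. Probe sets near absent in L17 numbered 45 and those near absent in wild type 6 at the looser limits, against 12 and 1.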

Other observations

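Other genes that rose in L17 serve varied roles. FOLB1, an aldolase of folate synthesis, read 372, 300 and 324 in L17 and 50.4, 51.8 and 12 in wild type. MBAC1, a mitochondrial carrier of basic amino acids, read 876, 1100 and 730 in L17 and 153, 168 and 143 in wild type. PRX52, a class III peroxidase of the cell wall, read 196, 177 and 289 in L17 and 15.8, 3.14 and 55.9 in wild type. In all 3 genes each L17 array lay above each wild type array, while 31.2% of all probe sets separated the lines in either direction. OLEO3, an oleosin that coats oil bodies, read 2073, 2138 and 2425 in L17 and 1000, 948 and 815 in wild type, and was the 1 measured member of a list of seed storage and oil body proteins.

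Among falls outside the groups described so far, AT5G39580, a class III peroxidase, read 219, 187 and 224 in L17 and 2606, 1591 and 7847 in wild type. AT2G16005, a lipid-binding protein of the MD-2-related type, read 9.75, 23.4 and 3.22 in L17 and 837, 491 and 200 in wild type. Wild type array 3 was the highest of its group for the peroxidase and the lowest for AT2G16005, and both genes passed without it, with log2 fold changes of -3.19 and -4.61. UBC28, a ubiquitin-conjugating enzyme with very bright signals, read 10140, 10133 and 10981 in L17 and 16131, 19144 and 20074 in wild type, while UBC20 of the same family rose by 0.99 on the log2 scale.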
